A study of Mus musculus with 10 samples.

Results

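The adipocyte genes described here are 34 named genes of brown and white fat cells, looked up by gene name in a table of 43346 mouse genes, and each of the 34 had 1 row. The 7 thermogenic genes among them (Ucp1, Cidea, Dio2, Elovl3, Ppargc1a, Prdm16 and Cpt1b) were set beside the other 27, which serve fat cells in general. The list was drawn up with earlier results from the same libraries known, including how their levels varied from library to library. That variation is therefore described and not tested, and it supports nothing.

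Mouse arteriovenous fistulas, in which a vein is joined to an artery and its wall remodels under arterial flow, supplied the RNA, taken from the outflow vein. All animals carried a human CX3CR1 knock-in on a strain labelled C57 and had chronic kidney disease, made 28 days before the carotid artery was joined to the jugular vein. One group received an antibody at 30 mg/kg and the other an equal volume of vehicle, in each case into the peritoneum 2 times per week, and veins were collected on day 7, which gave 5 antibody and 5 vehicle libraries. The treatment label names human CX3CR1 as the antibody's target whereas the title names fractalkine, the ligand of that receptor. The labels give no age or sex and do not say whether each library is a separate animal, so p-values measure library-to-library spread, which may be technical. Depth ran from 4282872 reads (antibody replicate 3) to 34271554 (vehicle replicate 4). Vessel markers were present in each library: 8 endothelial markers summed to 185 to 198 scaled RPKM in antibody and 159.6 to 205 in vehicle libraries, and 6 smooth muscle markers to 284 to 566 scaled RPKM in antibody and 396 to 609.8 in vehicle libraries.

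White adipocytes store triglyceride in 1 large droplet and release hormones such as adiponectin and leptin, whereas brown adipocytes hold many small droplets and burn fatty acids for heat. Heat is made when uncoupling protein 1, the product of Ucp1, lets protons back across the inner mitochondrial membrane, and noradrenaline acting on the beta-3 adrenergic receptor switches this programme on. Both kinds of cell depend on the nuclear receptor PPAR-gamma, and vessels are commonly wrapped in perivascular fat of white, brown or mixed character. In whole vein RNA, fewer cells of a type and less RNA per cell cannot be told apart.

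Promoters of 3 genes are shown because Ucp1 and Dio2 stand for the thermogenic genes and Adipoq for the general ones, and these did not peak in the same libraries. Each sequence is the 250 bases before the RefSeq start site (GRCm38.p6, the assembly called mm10 in the submitters' processing notes), written 5′ to 3′ on the gene's strand. Capitals mark TGACG, the core of the cyclic AMP response element, and CCAAT, the CCAAT box, each on either strand.
Ucp1, chr8:83290098-83290347, plus strand: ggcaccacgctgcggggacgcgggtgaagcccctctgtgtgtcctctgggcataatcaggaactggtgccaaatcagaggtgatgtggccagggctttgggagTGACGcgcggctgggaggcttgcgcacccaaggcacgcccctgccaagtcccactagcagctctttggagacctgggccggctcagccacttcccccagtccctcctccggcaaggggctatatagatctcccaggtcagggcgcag
Dio2, chr12:90739039-90739288, minus strand: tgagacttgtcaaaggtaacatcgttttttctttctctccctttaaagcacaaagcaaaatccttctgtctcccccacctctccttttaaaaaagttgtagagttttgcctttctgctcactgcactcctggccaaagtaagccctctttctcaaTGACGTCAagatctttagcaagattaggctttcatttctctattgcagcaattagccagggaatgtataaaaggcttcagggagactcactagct
Adipoq, chr16:23146286-23146535, plus strand: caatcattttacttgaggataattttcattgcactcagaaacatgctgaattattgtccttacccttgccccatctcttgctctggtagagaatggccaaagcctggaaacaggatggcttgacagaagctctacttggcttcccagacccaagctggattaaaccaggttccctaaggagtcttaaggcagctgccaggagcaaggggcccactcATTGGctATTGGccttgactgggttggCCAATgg
The Ucp1 window held 1 TGACG and the Dio2 window the palindrome TGACGTCA, in which the motif lies on both strands and overlaps itself. The Adipoq window held 3 CCAAT boxes and no TGACG. Of 32851 promoter windows of the same length, 17.8% held TGACG, 1.55% TGACGTCA and 33.8% CCAAT. The RefSeq table gave 31 windows for 24 of the 34 genes, of which 4 windows (Ucp1, Dio2, Ppargc1a and Ppara) held TGACG and 10 held CCAAT. None of the 31 held the DR1 element bound by PPAR receptors, searched on either strand as 2 copies of AGGNCA with 1 base between, against 0.338% of all windows. A match of letters is a description and not a binding site.

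Adipocyte transcripts were found in all 10 libraries at levels that differed several-fold between them. The 34 genes summed to 359 scaled RPKM in antibody replicate 3, the lowest, and to 2299 in antibody replicate 4, the highest; the 5 vehicle libraries lay between 665 and 1170.3. Scaled RPKM here means reads per kilobase of gene, scaled to library size and corrected for library composition, so levels can be compared between genes per length. Of the 33 genes that passed the filter on low values, 29 (87.9%) had their highest level in antibody replicate 4, where 10.4% of all tested genes had theirs. Antibody replicates 2 and 3 held the lowest level of 8 and 17 of the 33, against 4.46% and 14.7% of all tested genes. The median SD over 10 libraries was 0.72 on the log2 scale for the 33 genes and 0.23 for all tested genes. The spread lay mostly within the antibody group: 31 of 33 genes had a larger SD in antibody than in vehicle libraries, with a median of 0.94 against 0.35. Over all tested genes 44.4% had the larger SD in antibody libraries, with medians of 0.21 and 0.23. Antibody replicates 1 to 5 held 8280733, 20168623, 4282872, 20245837 and 12467973 reads, so the low levels of antibody replicate 3 rest on the shallowest library, and the part of depth in the spread was not tested.

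**Figure D1:**
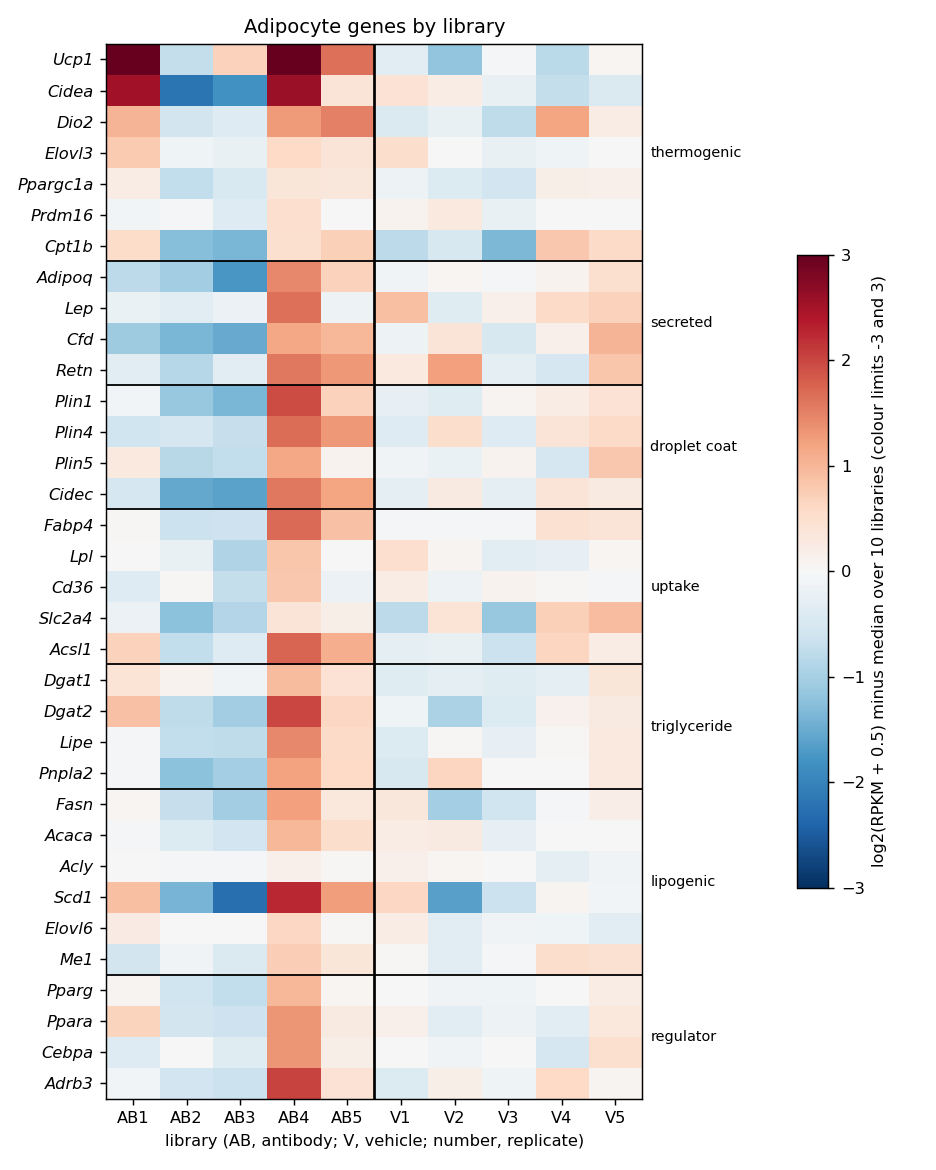
Log2(scaled RPKM + 0.5) of each of the 34 adipocyte genes (rows, grouped by role) in each library (columns; AB antibody, V vehicle), as the difference from that gene's median over the 10 libraries; colours end at -3 and 3. Antibody replicate 4 is high across nearly all rows, antibody replicates 2 and 3 are low across most, and antibody replicate 1 is high in Ucp1 and Cidea while Adipoq and Cfd are low there.

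Ucp1 and Cidea stood further from the general adipocyte genes in antibody replicate 1 than the other thermogenic genes did. As a mean of log2(scaled RPKM + 0.5) over the 6 thermogenic genes tested, all but Elovl3, with each gene taken from its own median, antibody replicates 1 to 5 stood at 1.57, -0.93, -0.62, 1.54 and 0.77. The same mean over the 27 general genes was -0.04, -0.65, -0.79, 1.30 and 0.51. Antibody replicate 4 was thus high in both groups of genes and antibody replicates 2 and 3 low in both, while antibody replicate 1 was high in the first mean and near the median in the second. The high mean of antibody replicate 1 came mostly from Ucp1 and Cidea, which stood 5.21 and 2.51 above their medians on the log2 scale; the mean of the 4 others there was 0.43. Nor were the general genes uniformly near their medians in that library: 11 of the 27 lay above, among them Dgat2 at 12.4 scaled RPKM (median 6.54), Scd1 at 217 (median 115) and Ppara at 1.28 (median 0.637). Over the 10 libraries Cidea was more like Ucp1 (Pearson r = 0.78) than like Adipoq (0.57), as was Elovl3 (0.76 and 0.37), at few reads. Prdm16 (0.20 with Ucp1, 0.77 with Adipoq), Cpt1b (0.45 and 0.63) and Ppargc1a (0.59 and 0.65) were nearer to Adipoq. Dio2 was about as like Ucp1 (0.59) as Adipoq (0.55). Nearness to Ucp1 was not particular to thermogenic genes. Among general genes it held for Ppara (0.78 with Ucp1, 0.69 with Adipoq), Dgat2 (0.77 and 0.70) and Dgat1 (0.76 and 0.47). It also held for Elovl6 (0.74 and 0.24) and Acly (0.34 and 0.28), while the remaining general genes were nearer to Adipoq. All these values rest on the same 10 libraries and are descriptions. Vehicle replicates 1 to 5 stood at -0.20, -0.30, -0.53, 0.11 and 0.09 for the thermogenic and at -0.02, -0.08, -0.23, 0.08 and 0.34 for the general genes, all nearer to the median than antibody replicate 4.

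Ucp1, the proton channel of brown fat (chromosome 8, 83290348 to 83298456, mm10), had the widest range of the 33 genes tested. It stood at 51.2, 0.3502, 1.77, 21.8 and 3.88 scaled RPKM in antibody replicates 1 to 5, and 0.622, 0.113, 0.852, 0.296 and 0.9501 scaled RPKM in vehicle replicates 1 to 5. Antibody replicates 1 and 4 lay far above the rest, antibody replicate 2 lay within the vehicle range, and the groups overlapped. Reads ran from 4 in vehicle replicate 2 to 786 in antibody replicate 1, a 452-fold range of levels whose lower end rests on few reads. In 2 of the 5 vehicle libraries the gene lay below the level used to filter genes.

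Cidea, a lipid-droplet protein abundant in brown fat, stood at 21.1, 0.3297, 0.577, 22.2 and 4.45 scaled RPKM in antibody replicates 1 to 5, and 4.61, 3.92, 2.75, 1.82 and 2.300 scaled RPKM in vehicle replicates 1 to 5. The same libraries as for Ucp1, antibody replicates 1 and 4, were highest, and antibody replicates 2 and 3 were lowest with 8 and 3 reads. Vehicle libraries all lay between these extremes, so that the antibody group enclosed the vehicle group.

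Elovl3, a fatty acid elongase induced in brown fat by cold, was near the limit of detection, at 0.502, 0.0321, 0, 0.383 and 0.267 scaled RPKM in antibody replicates 1 to 5, and 0.342, 0.0935, 0, 0.0384 and 0.0747 scaled RPKM in vehicle replicates 1 to 5. It had 0 reads in antibody replicate 3 and vehicle replicate 3, which allows up to 0.449 and 0.0879 scaled RPKM, the level that 3 reads would give; such limits concern counting error and nothing else. At most 11 reads were found in a library, and the gene did not pass the filter and was not tested.

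Dio2, the deiodinase that activates thyroid hormone within brown fat, stood at 2.78, 0.603, 0.732, 3.43 and 4.15 scaled RPKM in antibody replicates 1 to 5, and 0.695, 0.882, 0.4596, 3.21 and 1.402 scaled RPKM in vehicle replicates 1 to 5. Antibody replicates 1, 4 and 5 and vehicle replicate 4 were high, between 2.78 and 4.15. Cpt1b, the muscle and brown-fat form of the enzyme that admits fatty acids into mitochondria, stood at 6.61, 1.49, 1.39, 6.34 and 7.44 scaled RPKM in antibody replicates 1 to 5, and 2.31, 2.97, 1.43, 8.04 and 6.75 scaled RPKM in vehicle replicates 1 to 5. Its levels fell into a high set (antibody replicates 1, 4 and 5, vehicle replicates 4 and 5) and a low set of the other 5 libraries, with members of both groups in each. The annotated span of Cpt1b overlaps Chkb, so reads of the pair may not be told apart.

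Ppargc1a, a coactivator of mitochondrial genes, stood at 1.47, 0.5204, 0.742, 1.68 and 1.64 scaled RPKM in antibody replicates 1 to 5, and 1.02, 0.786, 0.633, 1.41 and 1.39 scaled RPKM in vehicle replicates 1 to 5. The same 5 libraries as for Cpt1b were highest, over a range of 3.24-fold. Prdm16, a regulator of brown fat identity, stood at 0.758, 0.767, 0.505, 1.39 and 0.838 scaled RPKM in antibody replicates 1 to 5, and 0.917, 1.11, 0.6297, 0.834 and 0.814 scaled RPKM in vehicle replicates 1 to 5. It varied least of the 6 thermogenic genes tested, by 2.75-fold, and antibody replicate 1, highest in Ucp1, was below its median in Prdm16.

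**Figure D2:**
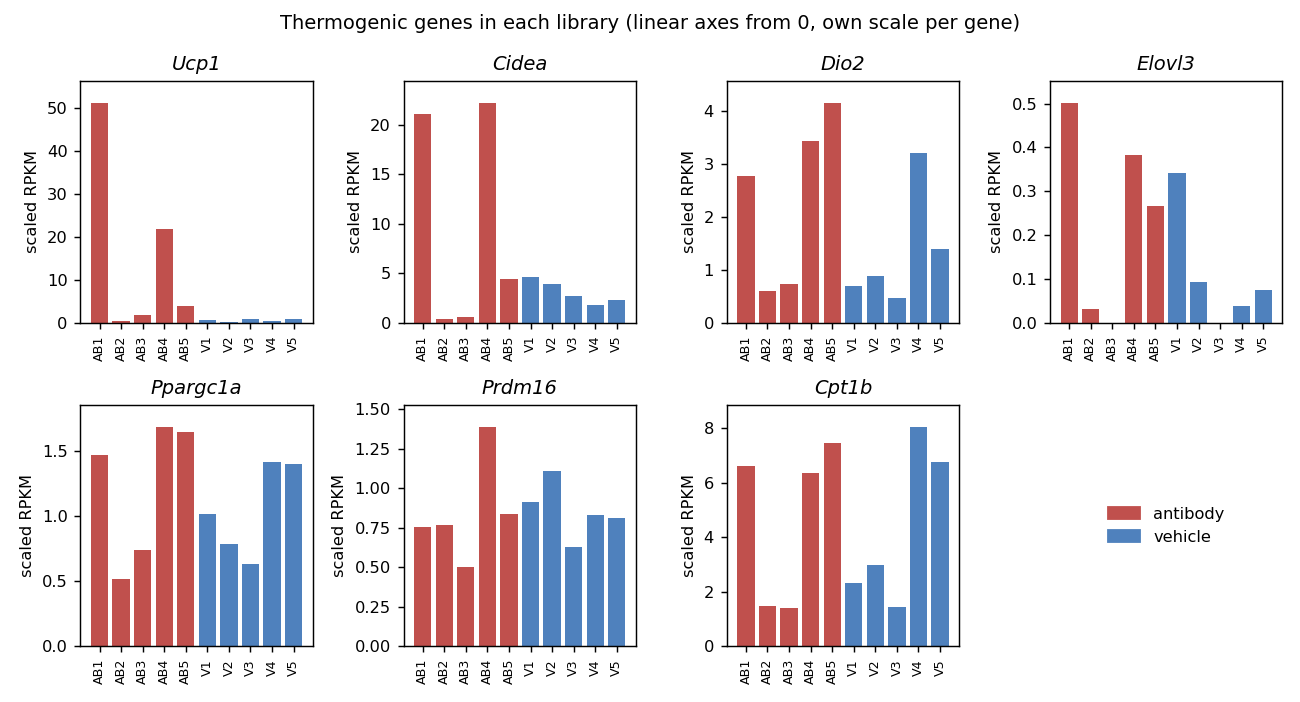
Scaled RPKM of the 7 thermogenic genes in each library (bars; red antibody, blue vehicle; linear axes from 0 with a scale per gene). Ucp1 and Cidea are high in antibody replicates 1 and 4, at 51.2 and 21.8 for Ucp1, whereas Dio2, Ppargc1a and Cpt1b are also high in antibody replicate 5 and vehicle replicate 4.

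Markers of skeletal muscle, a tissue that also expresses Cpt1b, Ppargc1a and Slc2a4, differed between libraries too. All 12 markers were detected, with sums of 463 to 4653 scaled RPKM in antibody and 850.0 to 8678 in vehicle libraries. Antibody replicate 5 and vehicle replicates 4 and 5 were the 3 highest, at 4653, 8678 and 5663, and the lowest was antibody replicate 4. Cpt1b was therefore high in 3 libraries with high muscle markers and also in antibody replicates 1 and 4, whose muscle marker sums were 1237 and 463. Of the 12 muscle markers 11 had a lower fitted level in antibody veins and none passed the test; their part in the levels of the shared genes was not tested.

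All 4 genes of secreted proteins were highest in antibody replicate 4. Adipoq, which encodes adiponectin (chromosome 16, 23146536 to 23158028, mm10), stood at 31.9, 26.4, 16.2, 150.1 and 88.9 scaled RPKM in antibody replicates 1 to 5, and 51.2, 57.2, 53.3, 58.97 and 77.1 scaled RPKM in vehicle replicates 1 to 5. Antibody replicates 4 and 5 lay above the whole vehicle range and antibody replicates 1, 2 and 3 below it. Lep, which encodes leptin, stood at 0.447, 0.372, 0.467, 2.92 and 0.475 scaled RPKM in antibody replicates 1 to 5, and 1.54, 0.347, 0.718, 1.13 and 1.26 scaled RPKM in vehicle replicates 1 to 5. Antibody replicate 4 was alone at the top, the other 4 antibody libraries lay together near the low end, and antibody replicate 5 did not share its high Adipoq level. Cfd, encoding the complement protease adipsin, was the most abundant of the secreted genes per length, at 86.1 to 551 scaled RPKM, and Retn, encoding resistin, lay at 1.25 to 8.93 scaled RPKM.

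Ucp1 and Adipoq, set against each other within a library, separated the libraries further. There were 160.3 RPKM of Ucp1 per 100 RPKM of Adipoq in antibody replicate 1, 14.5 in antibody replicate 4, 10.9 in antibody replicate 3, 4.36 in antibody replicate 5 and 1.33 in antibody replicate 2. The vehicle libraries held 0.198 to 1.600. The value of antibody replicate 3 rests on 13 reads of Ucp1 and 100 of Adipoq. Plin1, a general droplet gene, held 34.5 to 75.1 RPKM per 100 RPKM of Adipoq over all 10 libraries. Cidec held 30.4 to 63.0 and Cfd 331 to 652. Scd1, also a general gene, varied more, from 64.7 in vehicle replicate 2 to 678 in antibody replicate 1, where the Ucp1 ratio was highest too. Such ratios need no scaling between libraries, since both genes are read in the same one.

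**Figure D3:**
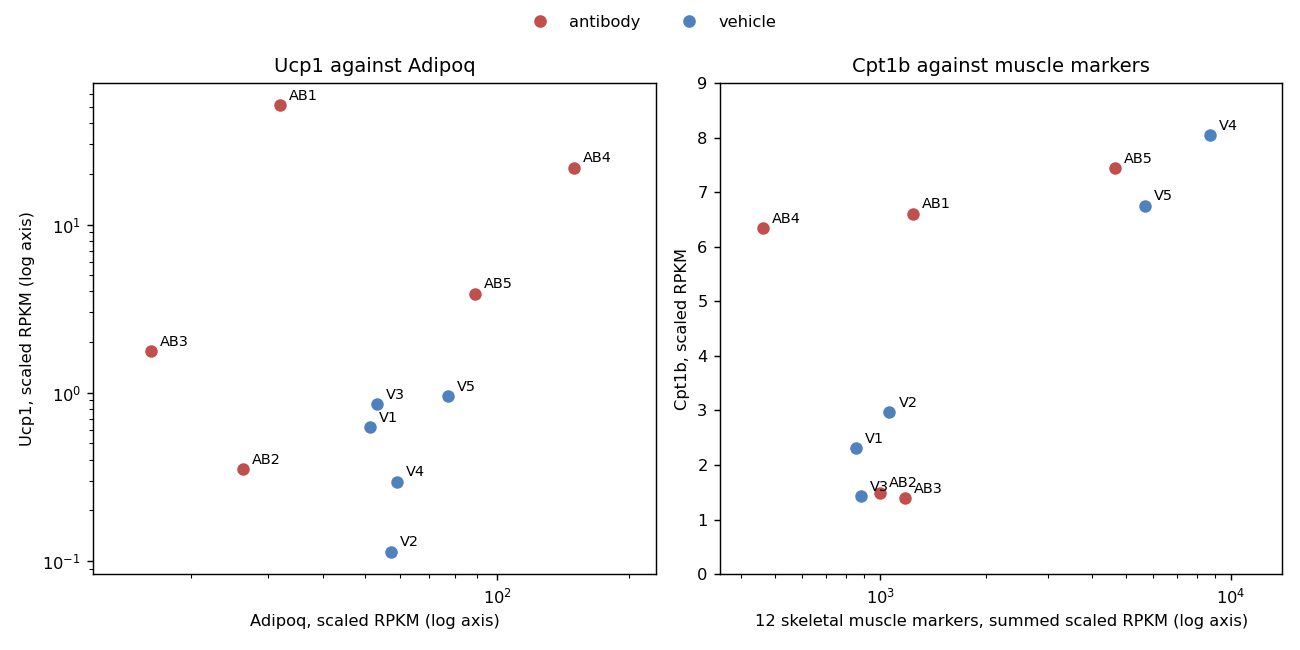
Left, Ucp1 against Adipoq, both in scaled RPKM on log axes, 1 point per library (red antibody, blue vehicle); right, Cpt1b in scaled RPKM against the summed scaled RPKM of 12 skeletal muscle markers on a log axis. Antibody replicate 1 pairs the highest Ucp1 (51.2) with a low Adipoq (31.9), and Cpt1b is above 6 both in the 3 libraries rich in muscle markers and in antibody replicates 1 and 4.

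Genes of the lipid droplet surface were also highest in antibody replicate 4. Plin1, the perilipin that guards the droplet from lipolysis, stood at 23.97, 11.3, 9.46, 99.9 and 41.4 scaled RPKM in antibody replicates 1 to 5, and 21.3, 19.7, 27.01, 29.8 and 34.7 scaled RPKM in vehicle replicates 1 to 5. Antibody replicate 4 was highest and antibody replicates 2 and 3 lowest, outside the vehicle range on either side. Cidec, which enlarges droplets by lipid transfer, stood at 16.96, 8.01, 7.599, 73.6 and 56.00 scaled RPKM in antibody replicates 1 to 5, and 19.5, 29.5, 20.1, 32.00 and 29.2 scaled RPKM in vehicle replicates 1 to 5. Here antibody replicates 4 and 5 lay above and antibody replicates 1, 2 and 3 below all 5 vehicle libraries, the order seen for Adipoq. Plin4 ranged over 7.13 to 38.9 scaled RPKM and Plin5, the perilipin of oxidative tissues, over 0.4599 to 3.34 scaled RPKM; Plin4 overlaps Hdgfl2 in the annotation.

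Fabp4, the fatty acid carrier of fat cells that endothelium and macrophages also express, stood at 67.6, 42.2, 43.2, 217 and 122 scaled RPKM in antibody replicates 1 to 5, and 64.7, 63.3, 65.3, 91.2 and 86.8 scaled RPKM in vehicle replicates 1 to 5. Antibody replicates 4 and 5 were the highest and antibody replicates 2 and 3 the lowest. Lpl, the lipase that frees fatty acids from blood lipoproteins, ranged over 24.2 to 81.8 scaled RPKM and the fatty acid receptor gene Cd36 over 31.5 to 91.2 scaled RPKM, both narrower than Fabp4. Acsl1, which activates fatty acids by joining them to coenzyme A, stood at 13.2, 4.59, 5.95, 28.1 and 17.6 scaled RPKM in antibody replicates 1 to 5, and 6.37, 6.71, 4.94, 12.7 and 9.43 scaled RPKM in vehicle replicates 1 to 5. Antibody replicates 1, 4 and 5 and vehicle replicate 4 were its 4 highest libraries. Slc2a4, encoding the insulin-regulated glucose transporter of fat and muscle, was highest in vehicle replicate 5 (8.02 scaled RPKM) and vehicle replicate 4 (6.82), 2 of the libraries rich in muscle markers. It was the single member among the 27 general genes whose highest library was not antibody replicate 4. Macrophage markers, 8 in number, summed to 1342 to 2147 scaled RPKM in antibody and 1679.8 to 2441 in vehicle libraries, with 1512 in antibody replicate 4. The sum of the 8 endothelial markers there was 186; as a mean from the median it stood at 0.14, below vehicle replicate 2 alone (0.16), with 2 markers highest there. The part of these markers in the Fabp4 level was not tested.

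Among genes that build or break down triglyceride, Dgat1 and Dgat2, which encode the 2 enzymes of the last step of synthesis, differed in range. Dgat1 stood at 7.08, 5.59, 4.77, 10.5 and 7.095 scaled RPKM in antibody replicates 1 to 5, and 3.92, 4.195, 3.900, 4.21 and 6.76 scaled RPKM in vehicle replicates 1 to 5. Vehicle replicate 5 reached the antibody range while the other 4 vehicle libraries lay below all 5 antibody libraries. Dgat2 ranged over 2.88 to 27.6 scaled RPKM, Pnpla2, encoding the lipase that takes the first fatty acid off, over 15.8 to 88.1 scaled RPKM, and Lipe, encoding hormone-sensitive lipase, over 6.89 to 33.4 scaled RPKM. Each of these 4 genes was highest in antibody replicate 4.

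Genes of fatty acid synthesis were uneven in how much they varied. Scd1, the desaturase that makes oleate, ranged over 23.7 to 552 scaled RPKM, a 23.3-fold span from antibody replicate 3 to antibody replicate 4, next to Ucp1 and Cidea in width among tested members. Acly, which makes cytosolic acetyl-CoA, ranged over 17.3 to 23.4 scaled RPKM and had the smallest SD of the 33, 0.12 on the log2 scale, below the median of all tested genes. Elovl6, which lengthens palmitate, stood at 2.18, 1.73, 1.77, 2.96 and 1.81 scaled RPKM in antibody replicates 1 to 5, and 2.12, 1.31, 1.59, 1.57 and 1.31 scaled RPKM in vehicle replicates 1 to 5. Antibody replicate 4 was highest and the groups overlapped. Fasn, the fatty acid synthase, ranged over 11.4 to 57.2 scaled RPKM, Acaca, its supplier of malonyl-CoA, over 2.68 to 8.91 scaled RPKM, and Me1, a source of NADPH, over 3.28 to 8.75 scaled RPKM.

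The regulators differed in range, from 3.55-fold for Pparg to 9.93-fold for Ppara. Pparg, the master regulator of adipocyte differentiation, stood at 9.61, 5.88, 5.304, 18.8 and 9.47 scaled RPKM in antibody replicates 1 to 5, and 9.02, 8.499, 8.32, 9.203 and 10.6 scaled RPKM in vehicle replicates 1 to 5. Vehicle libraries lay close together, antibody replicates 2 and 3 below them and antibody replicate 4 above. Cebpa, its partner transcription factor, ranged over 12.95 to 47.5 scaled RPKM and Ppara, the receptor that drives fatty acid oxidation, over 0.234 to 2.32 scaled RPKM. Adrb3, the beta-3 adrenergic receptor gene, was at 7.64 scaled RPKM in antibody replicate 4 and between 0.774 and 2.51 in the other 9 libraries. In antibody replicate 1, where Ucp1 was highest, Adrb3 stood at 1.37.

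No adipocyte gene passed the test of antibody against vehicle veins, the 2 groups of the study. Of the 33 tested by limma with a trended variance, Benjamini-Hochberg adjusted over all 17859 genes kept, 0 had an adjusted p below 0.05, and of all genes tested 0 did (0%). At an unadjusted p below 0.05 there were 2 members, Ucp1 and Dgat1, both higher in antibody veins, that is 2 of 33 against 6.53% of all tested genes in either direction and 3.55% higher in antibody, so the share is near the background. With limma-voom, which models the reads recovered from the table, 0 members were called as well, with 2 at an unadjusted p below 0.05. In 0 of the 33 did the groups stand apart without overlap, against 1.11% of all tested genes.

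Fitted levels were higher in antibody veins for 19 and lower for 14 of the 33, against 48.8% higher among all tested genes, and the median log2 difference was 0.07 against -0.0053 over all. The count of 19 rested on antibody replicate 4: without it 9 members were higher and the median was -0.18, whereas without antibody replicate 3 the count was 28 and the median 0.30. By role, fitted levels were higher for 5 of 6 thermogenic genes, 0 of 4 secreted, 1 of 4 droplet, 2 of 5 uptake, 3 of 4 triglyceride, 5 of 6 synthesis and 3 of 4 regulator genes, none of which passed the test.

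Ucp1 had the largest difference among the tested members and did not pass. It stood at 15.8 ± 21.6 scaled RPKM in antibody and 0.567 ± 0.357 in vehicle veins (SD, n = 5). The log2 difference was 2.63 (SE 0.96, limma adjusted p = 0.739). The exact two-sided permutation p of 0.0397 is unadjusted and belongs to the member of smallest limma p, so it adds no support. The fitted difference was 6.19-fold with a 95% interval of 1.41-fold to 27.2-fold, on a scale of log2(RPKM + 0.5) that understates the change of low genes. Antibody replicates 1, 3, 4 and 5 lay above the vehicle maximum of 0.9501 scaled RPKM and antibody replicate 2 below it. Without antibody replicate 1 the log2 difference was 1.87 and without antibody replicate 4 it was 2.17.

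Dgat1 was at 7.01 ± 2.19 scaled RPKM in antibody and 4.598 ± 1.22 in vehicle veins (SD, n = 5). Its log2 difference was 0.54 (SE 0.21, limma adjusted p = 0.739), with a 95% interval of 1.06-fold to 1.995-fold. Its exact two-sided permutation p of 0.0397 is likewise unadjusted and adds no support. Elovl6 was at 2.09 ± 0.521 scaled RPKM in antibody and 1.58 ± 0.332 in vehicle veins (log2 difference 0.31, SE 0.15, limma adjusted p = 0.739) and Acsl1 at 13.9 ± 9.56 scaled RPKM in antibody and 8.04 ± 3.09 in vehicle veins (log2 difference 0.54, SE 0.45, limma adjusted p = 0.798). These 3 and Ucp1 had the smallest unadjusted p among the members and are given as values, not as changes.

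For the remaining genes the intervals show what these libraries leave undecided. Adipoq was at 62.7 ± 56.5 scaled RPKM in antibody and 59.6 ± 10.3 in vehicle veins (SD, n = 5; log2 difference -0.38, SE 0.52, limma adjusted p = 0.866), with an interval of 0.345-fold to 1.704-fold. Plin1, at 37.2 ± 37.3 scaled RPKM in antibody and 26.5 ± 6.15 in vehicle veins, had an interval of 0.423-fold to 2.298-fold, and Cidea, at 9.72 ± 11.00 scaled RPKM in antibody and 3.08 ± 1.16 in vehicle veins, one of 0.336-fold to 5.45-fold. Intervals were narrow for Acly (0.899-fold to 1.198-fold) and Prdm16 (0.763-fold to 1.25-fold). Prdm16 was at 0.852 scaled RPKM in antibody and 0.861 in vehicle veins, so low that the added 0.5 narrows its interval. On the scale of log2(RPKM + 0.5), a difference of 2-fold in either direction lies within the intervals of Plin1 and Cidea. It lies outside those of Acly and Prdm16. The interval of Adipoq takes in a 2-fold lower level but not a 2-fold higher one.

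**Figure D4:**
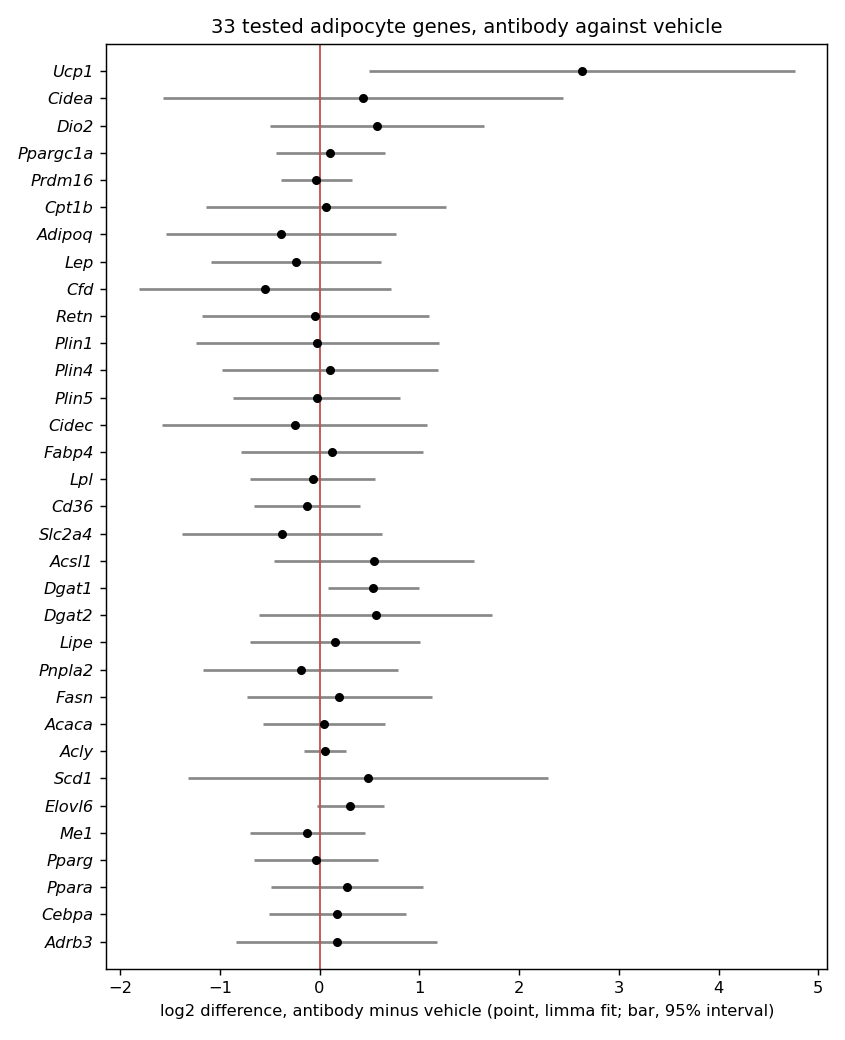
Log2 difference of antibody minus vehicle (points, limma fit) with its 95% interval (bars) for the 33 adipocyte genes tested. The intervals of Ucp1 (log2 2.63) and Dgat1 (0.54) lie above 0 before adjustment for the number of genes, and those of the other 31 include 0.

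Other genes of brown fat, a list of 18 that shares no gene with the 34, had means from the median of 0.35, -0.46, -0.36, 0.71 and 0.24 in antibody replicates 1 to 5 and -0.09, -0.22, -0.40, 0.29 and 0.41 in vehicle replicates 1 to 5. Antibody replicate 4 had the highest mean, and antibody replicate 1, the highest in Ucp1, lay below vehicle replicate 5. The summed level of the list was instead highest in vehicle replicates 5 and 4, at 174.0 and 168.9 scaled RPKM. It was 143.4 in antibody replicate 4 and 113.6 in antibody replicate 1. Of the 17 tested, 11 had a higher and 6 a lower fitted level in antibody veins, 0 passed, and the median log2 difference was 0.09. Otop1, a proton channel gene of brown fat, stood at 0.933, 0.139, 0.325, 2.01 and 0.3703 scaled RPKM in antibody replicates 1 to 5, and 0.193, 0.135, 0.178, 0.333 and 0.292 scaled RPKM in vehicle replicates 1 to 5. Its 2 highest libraries were antibody replicates 4 and 1, those highest in Ucp1. The mitochondrial subunit genes Cox7a1 and Cox8b, shared by muscle, heart and brown fat, were highest in vehicle replicate 4 (35.5 and 80.1 scaled RPKM), where muscle markers were highest as well. Cox7a1 also reached 20.5 in antibody replicate 1, against 3.42 in antibody replicate 2. Slc36a2, an amino acid transporter of brown fat, reached 18.3 in antibody replicate 4, 9.301 in antibody replicate 5 and 6.32 in antibody replicate 1, and did not exceed 5.59 in a vehicle library. Zic1, a marker of classical brown fat, did not exceed 0.315 in a library and was at 0.0376 and 0.0457 in antibody replicates 1 and 4. By the smallest p, the list was led by Gk, encoding glycerol kinase, at 2.17 ± 0.775 against 1.101 ± 0.2296 scaled RPKM, and Ppargc1b, a coactivator related to Ppargc1a, at 3.64 ± 0.508 against 2.88 ± 0.638 scaled RPKM, each with limma adjusted p = 0.739.

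Other general adipocyte genes, a list of 30, had their lowest and highest means in the same libraries as the 27, antibody replicates 3 and 4. The means from the median were -0.13, -0.52, -0.65, 1.07 and 0.34 in antibody replicates 1 to 5 and -0.13, -0.17, -0.16, 0.15 and 0.27 in vehicle replicates 1 to 5, and 22 of the 30 were highest in antibody replicate 4. Fitted levels were higher in antibody veins for 13 and lower for 17, with 0 passing and a median log2 difference of -0.011. The members of smallest p were Agpat2, an acyltransferase of triglyceride synthesis, at 10.3 ± 5.89 against 6.22 ± 0.971 scaled RPKM, and Sncg, encoding gamma-synuclein, at 20.7 ± 8.24 against 26.7 ± 5.39 scaled RPKM, with limma adjusted p of 0.739 and 0.771.

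**Figure D5:**
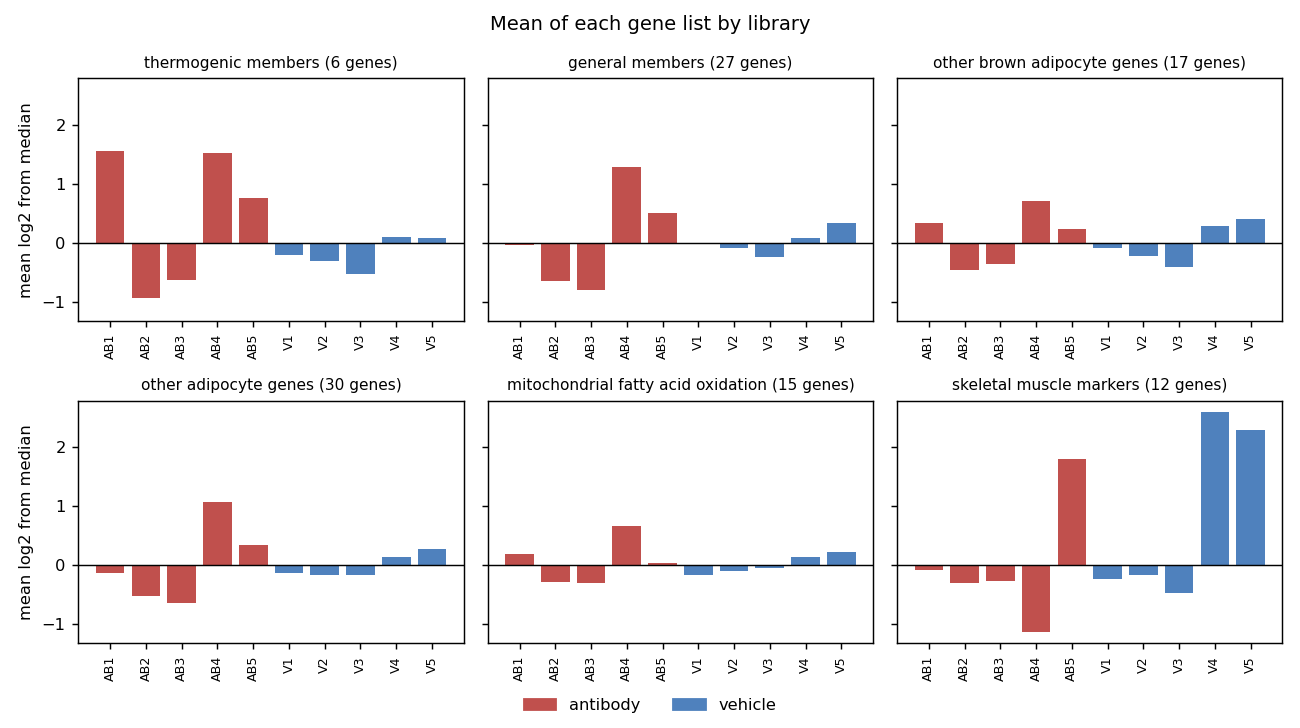
Mean over each gene list of log2(scaled RPKM + 0.5), each gene taken from its own median over 10 libraries (bars; red antibody, blue vehicle), for 6 lists. Antibody replicate 1 stands at 1.57 for the thermogenic genes and -0.04 for the general ones, most of the former from Ucp1 and Cidea, while the muscle markers are high in antibody replicate 5 and vehicle replicates 4 and 5.

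The 8 genes whose pattern over the 10 libraries was most like that of Adipoq included 4 of the list of 30 general genes, and the 8 most like Ucp1 none of it. Neither set of 8 held a gene from the list of 18 other brown fat genes. Only genes at an average log2 CPM of at least 1 were searched. How many genes of either list reached that level is not given here, so absence from a set of 8 is not read as a result. Among 12639 protein-coding genes outside the 34, Adipoq was followed most closely by Lgals12 (Pearson r = 0.98), Mrap (0.98), Mgll (0.97), Car3 (0.97), Apcdd1 (0.97), Gstz1 (0.96), Ormdl3 (0.96) and Mccc2 (0.96), of which the first 4 are on the list of 30. Mrap, encoding an accessory protein of melanocortin receptors, stood at 11.97 scaled RPKM in antibody replicate 4 and 1.99 in antibody replicate 3, and Car3, encoding carbonic anhydrase 3, at 369.6 and 43.9. Without antibody replicates 3 and 4, the 2 libraries farthest from the median of Adipoq, the 8 values of r ran from 0.88 to 0.98. Ucp1 was followed most closely by Cysltr1, a leukotriene receptor gene (r = 0.94), and Pfkfb3, a regulator of glycolysis (0.93), then by Itpk1, Pus10, Arel1, Tmed5, Dlg1 and Elmod2 (0.86 to 0.88). Pfkfb3 ranged over 7.74 to 20.9 scaled RPKM and Cysltr1 over 1.24 to 3.17, far less than Ucp1. Without antibody replicates 1 and 4 the 8 values ran from 0.17 to 0.81, so the likeness to Ucp1 rests in part on those 2 libraries. An r of at least 0.9 was reached by 59 genes for Adipoq and by 2 for Ucp1. All of these are the highest of many values over the same 10 libraries, given as descriptions with no test.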

How the data were processed

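The authors deposited a single table with RPKM per gene and library, that is reads per kilobase of gene length scaled to library size, per the file headers. The TruSeq V2 kit was used on 0.5 µg of total RNA, per the labels' protocols, and the submitters' processing notes name mm10. Aligner, counting tool, use of strand and annotation: not given in the sources used here. Multiplying RPKM by gene length plus 1 bp gave whole reads for 100% of values within 0.001, so depth is known. The filter on low values asked for 0.513 CPM (10 reads at median depth) in 5 or more libraries and 15 reads in all. This left 17859 genes and 33 of the 34 members, Elovl3 being below it. RPKM were divided by trimmed-mean-of-M factors of the kept genes (0.841 to 1.13).

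Because the unit is RPKM, log2(scaled RPKM + 0.5) was tested two-sided with limma (version 3.58.1, trended variance, R version 4.3.3), group being the only term, and called at an adjusted p below 0.05. Permutation p-values are exact over 252 assignments of 5 against 5, whose smallest p is 0.00794. The pipeline was tested on simulated data with known folds, planted only in genes with many reads. Simulated spread was capped below that of Ucp1 and Cidea, so the simulation does not show what would be recovered for them. No support for the absence of calls is drawn from it. Replicates of a group all differed by more than sampling noise, so none was a copy or resampling of another library of its group. Pairs across the groups were not compared in this way. The comparison was a chi-square, which rises with depth, and antibody replicate 3 was the shallowest library. The closest pair within a group was antibody replicates 2 and 3, with a chi-square per degree of freedom of 11.7. This does not show whether any pair came from separate animals.

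Members and lists were chosen with earlier results of these data known. Values in every library are given for the thermogenic genes, for Adipoq, Lep, Plin1, Cidec, Fabp4 and Pparg and for the 4 members of smallest p; of each other list up to 4 genes of smallest p were eligible, and Cox7a1, Cox8b, Slc36a2, Zic1, Acadm and Cpt1a were named after their values were seen. The genes most like Ucp1 and Adipoq are the 8 of highest Pearson r per target, at an average log2 CPM of at least 1, with predicted symbols passed over. Replicate numbers were not treated as pairs.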

Additional observations from a re-analysis of the deposited data

Results flagged for a closer look

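In 5 of 68 sets of 5 values (34 genes in each group), 1 library stood far from the other 4 of its group. Its gap to the nearest took more than 0.71 of the group's range, on unlogged levels. Chance gives about 1 in 20 for normal values, and the count is near that share. Levels are skewed and these genes vary together, so the count is not read as an excess. No share over all tested genes is given. Of the 5 sets, 3 lay in antibody replicate 4. These were Lep at 2.92 scaled RPKM, where the next antibody library was at 0.475, Cebpa at 47.5 (next 21.05) and Adrb3 at 7.64 (next 2.203). The others were Dgat1 in vehicle replicate 5 at 6.76 (next vehicle library 4.21) and Elovl3 in vehicle replicate 1 at 0.342 (next 0.0935), which rests on 10 reads against 3.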

How the results depend on the processing

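In no alternative did a member pass the adjusted threshold. Over all genes 0 were called, except 1 without the filter on low values: Gm27598, a miRNA gene of at most 2 reads in a library. Of 626 refitted log2 differences of single members, 558 kept their sign and 68 changed it, in 22 of the 33 genes. Signs differed with the deposited RPKM (0.015 for Prdm16, 0.027 for Retn, 0.062 for Plin1, 0.036 for Plin5, 0.015 for Lpl and 0.044 for Pparg), with limma-voom (0.068 for Prdm16, 0.17 for Retn, 0.10 for Plin1, 0.17 for Plin5 and 0.074 for Pparg) and with its quality weights (-0.32 for Cidea, -0.20 for Ppargc1a, -0.33 for Cpt1b, -0.092 for Plin4, -0.12 for Fabp4, -0.057 for Fasn, -0.066 for Acaca and -0.040 for Adrb3). Leaving out 1 library at a time gave log2 differences of -0.14 to 1.06 for Cidea, -0.21 to 0.36 for Cpt1b, -0.37 to 0.24 for Retn, -0.51 to 0.33 for Plin1, -0.31 to 0.013 for Me1, -0.32 to 0.18 for Plin5, -0.69 to 0.11 for Cidec, -0.52 to 0.096 for Pnpla2, -0.30 to 0.14 for Pparg, -0.16 to 0.068 for Prdm16, -0.29 to 0.14 for Lpl, -0.35 to 0.032 for Cd36, -0.26 to 0.33 for Plin4, -0.23 to 0.35 for Fabp4, -0.18 to 0.37 for Lipe, -0.12 to 0.45 for Fasn, -0.18 to 0.22 for Acaca, -0.040 to 1.09 for Scd1, -0.12 to 0.31 for Cebpa, -0.28 to 0.39 for Adrb3 and -0.0044 to 0.099 for Acly. Members higher in antibody veins numbered 25 of 33 with deposited RPKM, 24 with limma-voom, 11 with quality weights and 9 to 28 with 1 library left out; deposited RPKM also moved the median of all tested genes to 0.06. The cause of these shifts was not tested. Ucp1 kept its direction in each setting that tested it, with log2 differences of 1.87 to 3.40 and adjusted p of 0.559 to 0.941; it did not pass the stricter filter. With the replicate number as a block 0 members were called and 2 had an unadjusted p below 0.05, as without it. Same-numbered libraries correlated over 0.1 in 2 of 5 pairs, and 1 of 5 antibody libraries correlated best with its own number. Ucp1, Elovl3, Cidea, Ppara, Plin5 and Lep had fewer than 10 reads in at least 1 library, which limits their lowest values.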

Other observations

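Mitochondrial fatty acid oxidation genes, which muscle, heart and brown fat use most, shared the peak of the adipocyte genes. Of 15 genes 14 had their highest level in antibody replicate 4, and the list summed to 239 to 475 scaled RPKM in antibody and 263 to 359 in vehicle libraries. Acadm, encoding the medium-chain dehydrogenase, stood at 27.1, 13.7, 15.8, 38.1 and 22.3 scaled RPKM in antibody replicates 1 to 5, and 17.9, 18.8, 18.2, 20.6 and 23.7 scaled RPKM in vehicle replicates 1 to 5. In antibody replicate 1, high in Ucp1, 14 of the 15 were above their median, as were 14 in vehicle replicates 4 and 5, where muscle markers were high. In antibody replicates 2 and 3 and in vehicle replicate 1 there was 1 of 15 each, and in vehicle replicate 2 there were 2. Cpt1a, the liver form of the enzyme that Cpt1b encodes for muscle and brown fat, did not share this pattern, with 24.4 and 24.02 scaled RPKM in antibody replicates 1 and 4 and 27.4 in antibody replicate 2. Of the 15, 11 had a higher fitted level in antibody veins, 0 passed the test, and the median log2 difference was 0.040.

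Antibody replicate 4 also held the highest sum of 6 kidney tubule markers, 61.9 scaled RPKM, with vehicle replicate 5 next at 57.6; antibody replicate 1, high in Ucp1, stood at 4.21. Of 5 salivary gland markers, 1 was at 0 reads in all libraries and 1 was tested, the amylase gene Amy1, which stood at 4.696 scaled RPKM in antibody replicate 4 and 1.07 in antibody replicate 2. Markers of fibroblasts and preadipocytes, 8 in number, summed to 3108 to 3652 scaled RPKM in antibody and 3128 to 4855 in vehicle libraries. The sum was lowest in antibody replicate 4, where 5 of the 8 were above their median, while the mean from the median was lowest in antibody replicate 3 (-0.62, against 0.11 in antibody replicate 4), where 5 of the 8 were lowest. Among them Dlk1, a marker of preadipocytes, was at 1.34 ± 0.951 against 4.03 ± 2.23 scaled RPKM in antibody against vehicle veins (limma adjusted p = 0.739). The part of these markers in the adipocyte levels was not tested.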
